A study of Mus musculus with 2 samples.

Results

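The cells described here are the Krt13-positive superficial cells of the wild-type mouse corneal epithelium, 812 of the 10154 wild-type cells that met the quality limits (8.0%, exact 95% interval 7.48 to 8.54%) and of 19696 such cells in the whole series. They were chosen by their own RNA. A kept barcode had at least 500 genes, at least 1000 unique molecular identifiers (UMIs, each counting 1 captured RNA molecule) and at most 20% mitochondrial UMIs. A member also had, per 10000 UMIs of the cell, at least 30 of Krt5, Krt14 and Krt15 together, at least 60 of Krt12 and at least 5 of Krt13. It had under 5 raw UMIs of Ube2c, Ccnb1, Plk1 and Cenpf together and under 5 of Hist1h1b, Hist1h2ap and Rrm2 together, so that cycling cells stayed out. The contrast is the 6549 cells of the same library that met every limit but had Krt13 under 5. Members were 11% of the 7361 noncycling Krt12-positive cells.

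The library came from cornea and limbus of animals of genotype wt, digested with liberase and trypsin after most of the conjunctiva had been cut away. A second library, from animals of genotype Pax6 +/-, was made in the same way and gave 59 cells by the same rule. The design names 2 mice of each genotype and there is 1 library for each, so cells of both mice may be mixed. Strain, sex, age and the kind of Pax6 allele are not given in the sources used here. Without replicate libraries no test could be made: "higher" and "lower" describe summed cells, and every interval is a 95% interval that covers counting error only.

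The corneal epithelium is a stratified sheet that renews itself from stem cells at the limbus. Cells divide in the basal layer, lose their anchorage to the basement membrane, move up through wing cell layers and are shed from the surface. Krt12, with Krt3 in some species, is the keratin that defines corneal epithelium, while Krt13 pairs with Krt4 in wet mucosal epithelia such as conjunctiva, oesophagus and tongue. Surface cells carry membrane mucins and tight junctions, which hold the tear film and close the barrier.

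Members were deep. Their median was 19448.5 UMIs and 3984.5 genes against 10368 UMIs and 3319 genes in contrast cells, and 265 of them (32.6%) lay above the 95th percentile of contrast cells, 25871 UMIs. Thinned to 3000 UMIs, members had a median of 1330 genes and contrast cells 1466. At the other end, 85 members had under 3000 UMIs, and in these Gm42418, a transcript known to overlap a ribosomal RNA repeat, stood at 159323 CPM (counts per 1000000 summed UMIs without mitochondrial genes) against 12229 CPM in the 389 members of 20000 UMIs or more. Contrast cells were alike, with 126653 CPM in the 687 under 3000 UMIs and 16737.5 CPM in the 586 of 20000 or more. Markers of blood vessel and mural cells summed to 2.54 CPM in members, 7.41 CPM in contrast cells and 8287 CPM in reference cells. Those of immune cells summed to 2.32, 4.20 and 3793 CPM, those of Schwann cells to 144, 130 and 1686 CPM. Those of keratocytes summed to 88.2, 114 and 3312 CPM. In members the Schwann sum was nearly all Mbp, which had 133 to 163 CPM across the member groups by Krt13 level described below. Cdh5, Ptprc and Sox10, defining genes of endothelial, immune and Schwann cells, had no UMI in members. Of these lists, 2 of 9 vessel and mural, 3 of 9 immune, 1 of 5 Schwann and 0 of 8 keratocyte genes were at 0. The 171 reference cells are wild-type vessel, Schwann and immune cells, which should lack keratinocyte genes and show the level that free RNA could add. They were chosen by markers of those cells, so their high sums of such markers follow from the choice. Keratocyte markers were not used to choose them. The 2 libraries share 33 kept barcodes, and none is a member.

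Krt13 itself ran from 5.00 to 157 per 10000 UMIs in members, with a median of 19.2. In the 6549 contrast cells it had no UMI in 5496. As a summed level Krt13 (ENSMUSG00000044041; GRCm38 chr11:100117327-100121566, minus strand) stood at 2874 CPM in members, 41.0 CPM in contrast cells and 9.83 CPM in reference cells. These values chose the cells. The limit rests on few molecules in shallow cells: 41 members had a single Krt13 UMI, and 540 had at least 20. Those with a single UMI had Psca at 17.2 CPM (1 UMI) and Asprv1 at 773 CPM, at a median depth of 1421 UMIs. All members had 1803 and 5769 CPM of these genes, and all contrast cells 43.5 and 280 CPM. The 105 members from 5 to under 7 per 10000 had Psca at 445 CPM and Asprv1 at 2380 CPM, and the 173 contrast cells from 3 to under 5 had 82.1 and 1265 CPM. Just inside and just outside the limit, Muc4 was at 800 and 577 CPM and Itgb4 at 18.4 and 28.4 CPM, so the limit cuts a gradient.

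The markers of the label did not hold alike. Krt13 and Krt12 were at their limits in every member because they chose the cells. Asprv1, outside the rule, was found in most members, thinned or not. Psca, also outside the rule, was found in most members before thinning but in a minority after it. Krt12 (ENSMUSG00000020912; chr11:99415666-99422259, minus strand) had a median of 371 per 10000 UMIs in members (range 63.5 to 650.3; both are within the rule) and of 255 in contrast cells. Psca, a GPI-anchored protein of the Ly6 family (ENSMUSG00000022598; chr15:74714839-74717069, plus strand), had a median of 0.854 per 10000, a maximum of 278 and no UMI in 323 members. Asprv1, a retroviral-like aspartic protease that processes filaggrin in skin (ENSMUSG00000033508; chr6:86628164-86629710, plus strand), had a median of 24.3 and a maximum of 268, and no UMI in 120 members. At least 1 Psca UMI was found in 60.2% of members, 7.33% of contrast cells and 5.26% of reference cells, whose median depth was 3498 UMIs. Thinned to 3000 UMIs per cell, which leaves out 85 members, 687 contrast cells and 66 reference cells, the shares were 45.8% (42.1 to 49.5%), 2.85% (2.44 to 3.31%) and 4.76% (1.56 to 10.8%). The contrast cells' share is thus no higher than the reference cells' share. For Asprv1 the shares were 85.2, 22.6 and 10.5% unthinned and 79.6, 11.5 and 8.57% thinned. After thinning, 328 of 727 members had UMIs of both genes, 251 of Asprv1 alone, 5 of Psca alone and 143 of neither. Psca was therefore rarely seen in a member without Asprv1.

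Promoter sequences are printed as examples for Krt13, which chose the cells, and for 4 genes that were higher in them. Each printed stretch holds a marked motif. Those of Pbp2, Pllp and Enpp3, which are among the 15 highest genes, hold none and are not printed. Muc4 is printed but is not among the 15 highest. Each is the 250 bases before the start given by RefSeq (build GRCm38.p6), 5′ to 3′ on the gene's strand. Capitals mark CACCC, a core bound by Krüppel-like factors, TGAGTCA, the AP-1 site, or AACNGGTT, a grainyhead-like site, each on either strand (GGGTG is CACCC on the other strand).
Krt13: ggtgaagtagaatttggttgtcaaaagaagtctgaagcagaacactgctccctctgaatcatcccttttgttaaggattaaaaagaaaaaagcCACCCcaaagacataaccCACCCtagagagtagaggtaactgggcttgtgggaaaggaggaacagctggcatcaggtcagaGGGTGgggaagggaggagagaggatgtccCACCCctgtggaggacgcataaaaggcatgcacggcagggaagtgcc
Asprv1: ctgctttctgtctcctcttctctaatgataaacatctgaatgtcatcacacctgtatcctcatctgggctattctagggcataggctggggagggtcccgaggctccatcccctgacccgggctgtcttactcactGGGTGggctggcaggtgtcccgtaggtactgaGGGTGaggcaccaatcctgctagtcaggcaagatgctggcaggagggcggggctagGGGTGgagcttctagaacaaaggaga
Muc4: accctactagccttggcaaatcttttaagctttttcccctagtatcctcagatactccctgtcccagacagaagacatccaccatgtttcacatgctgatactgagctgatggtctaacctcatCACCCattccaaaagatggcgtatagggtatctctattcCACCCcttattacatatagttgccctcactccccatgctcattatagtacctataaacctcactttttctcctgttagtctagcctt
Cysrt1: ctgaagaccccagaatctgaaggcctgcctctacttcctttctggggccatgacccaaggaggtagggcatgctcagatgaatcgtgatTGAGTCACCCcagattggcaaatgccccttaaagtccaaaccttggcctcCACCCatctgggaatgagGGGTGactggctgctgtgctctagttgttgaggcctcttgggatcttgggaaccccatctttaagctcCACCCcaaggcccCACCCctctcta
Mab21l4: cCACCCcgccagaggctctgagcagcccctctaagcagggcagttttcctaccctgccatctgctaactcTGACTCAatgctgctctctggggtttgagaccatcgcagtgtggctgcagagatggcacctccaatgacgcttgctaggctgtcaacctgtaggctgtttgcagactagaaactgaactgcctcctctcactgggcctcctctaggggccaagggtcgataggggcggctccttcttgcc
They lie at chr11:100121567-100121816, minus strand (Krt13), chr6:86627924-86628173, plus strand (Asprv1), chr16:32735636-32735885, plus strand (Muc4), chr2:25239898-25240147, minus strand (Cysrt1) and chr1:93160949-93161198, minus strand (Mab21l4). The Cysrt1 stretch lies inside the gene's GENCODE span (chr2:25238818-25242452). Krt13 holds 4 CACCC, Asprv1 3, Muc4 2, Cysrt1 5 and Mab21l4 1. Cysrt1 and Mab21l4 also hold 1 TGAGTCA each, which in Cysrt1 overlaps a CACCC. Of the 15 highest genes named below, 8 had a promoter in the table, and of the 15 lowest also 8. Psca, Krt4, Krt19, Nccrp1, Snx31, Ereg and Gm44275 had no entry. CACCC was in 5 of the 8 highest (62.5%) and 7 of the 8 lowest (87.5%), in 62.1% of 330 promoters of all genes at least 2-fold higher, in 59.9% of 931 of all genes at least 2-fold lower, in 56.6% of 5041 of all measured genes and in 51.3% of all 27025 promoters. TGAGTCA was in 2 of the 8 highest and 0 of the 8 lowest, in 6.36% of the 330, in 3.01% of the 931, in 2.98% of the 5041 and in 4.43% of all. AACNGGTT was in 0 of either 8, in 1.52% of the 330, 1.93% of the 931, 1.63% of the 5041 and 1.71% of all promoters. CANNTG, the E-box, was in 5 of the 8 highest, 4 of the 8 lowest, 65.8% of the 330, 54.1% of the 931, 54.8% of the 5041 and 66.0% of all. A match describes letters and not a bound site.

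Across the transcriptome, 6301 genes had at least 20 CPM in members or contrast cells, leaving out the 12 genes of the rule and mitochondrially encoded genes. Of these, 442 (7.01%) were higher in members by 2-fold or more and 1187 (18.8%) lower by 2-fold or more, and each of those ratios had an interval on its own side of 1. The rule chose the cells on this contrast, so nothing is read from these shares. Of all calls 27.1% were higher on summed UMIs. The share was 64.7% with edgeR's TMM factors (899 higher, 491 lower) and 69.7% with DESeq2's size factors (1003 and 436), which raise every log2 ratio by 0.48 and 0.55. The median log2 ratio of all measured genes was −0.36 on summed UMIs, 0.18 with TMM and 0.26 with DESeq2. Ratios near 1 therefore have no direction that holds under each scaling, and the lists below are set beside −0.36. Counts of higher and lower genes in every list below stand beside 7.01% and 18.8% of all measured genes. Among cells of 3000 UMIs or more the counts were 442 and 1182, among those from 5000 to 20000 UMIs 540 and 1114, and with every cell thinned to 3000 UMIs 507 and 1328. All 30 genes named below were at least 2-fold in the same direction in each of these. The plot of member against contrast levels shows both tails.

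**Figure D1:**
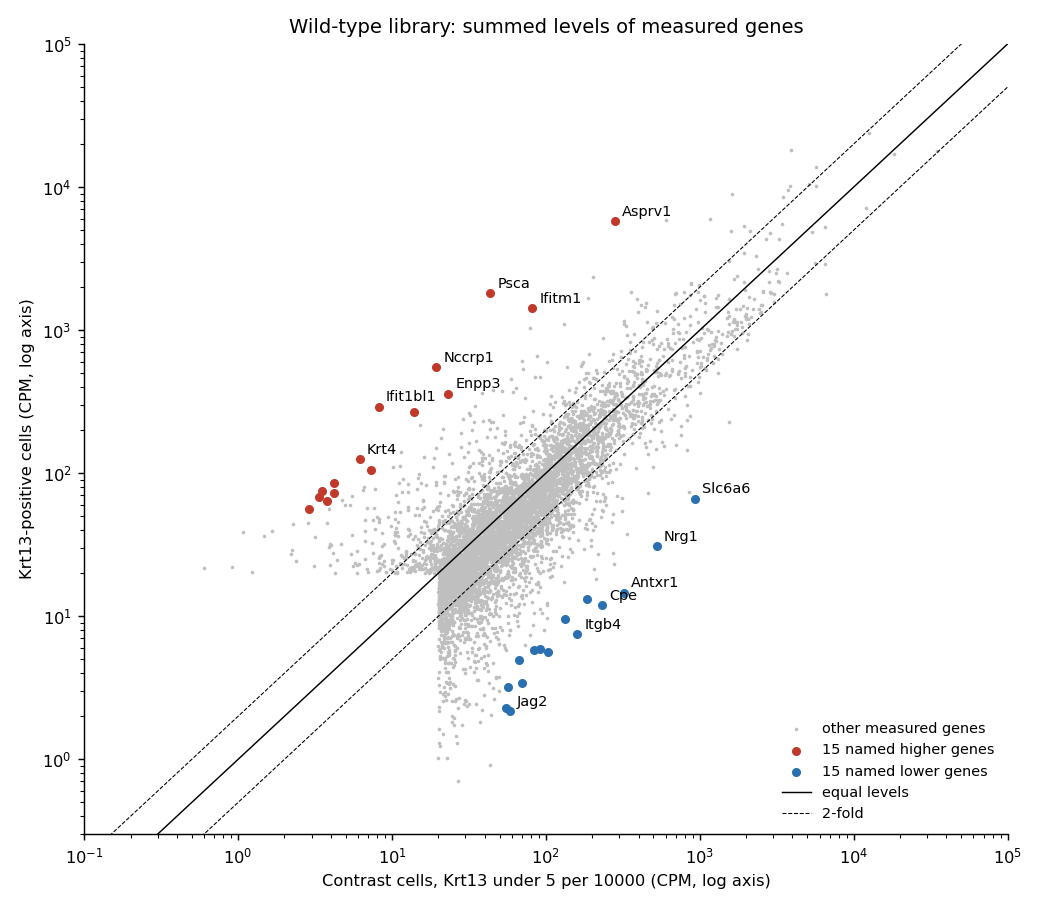
Summed levels in Krt13-positive cells (vertical) against contrast cells (horizontal) for measured genes of the wild-type library, both in CPM on log axes. Red and blue points are the 15 named genes with the highest and the lowest ratio, from Psca at 41.4-fold higher to Jag2 at 26.9-fold lower, and dashed lines mark 2-fold.

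Psca, Asprv1, Nccrp1, Krt4 and Krt19, which are known from surface or mucosal epithelia, were among the 15 highest ratios. Psca had 1803 CPM in members (33411 UMIs), 83.4 CPM in the contrast cells at or below the median Krt14 level (Krt14-low, 3275 cells) and 7.23 CPM in those above it (Krt14-high, 3274 cells). Over all contrast cells it had 43.5 CPM, a ratio of 41.4 (40.0 to 43.0). Reference cells had 14 CPM. Asprv1 had 5769 CPM in members, 499 in Krt14-low and 81.3 in Krt14-high cells, a ratio of 20.6 (20.3 to 20.9) to all contrast cells. As summed levels, both genes were thus low in Krt14-high cells, higher in Krt14-low cells and highest in members. Most of the Psca in contrast cells came from few of them. The 72 contrast cells with Psca at 5 or more per 10000 held 2563 of the 3170 Psca UMIs. They also held 7535 of the 20422 Asprv1 UMIs. Nccrp1, an F-box-associated protein of stratified epithelia (chr7:28543596-28547254, minus strand), had 551 CPM in members and 19.4 in contrast cells (28.4-fold). Krt4, the usual partner of Krt13 (chr15:101918535-101924735, minus strand), had 125 and 6.18 CPM (20.3-fold). Krt19, a small keratin of simple and mucosal epithelia, had 84.9 and 4.20 CPM (20.2-fold). Both keratins were concentrated in 61 members, picked by Krt4, Krt7 and Krt19 and described below. These held 1756 of the 2325 Krt4 UMIs and 859 of the 1573 Krt19 UMIs of members. The other 751 members had Krt4 at 33.6 and Krt19 at 42.1 CPM.

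The other 10 have varied roles. Ifit1bl1, an interferon-induced gene, had 291 CPM in members, 8.18 in contrast cells and no UMI in reference cells (35.6-fold). Ifitm1, an interferon-induced membrane protein, had 1422, 81.8 and 121 CPM (17.4-fold). Snx31, a sorting nexin, was 21.2-fold higher in members. Cysrt1, a cysteine-rich protein of the cornified layer, was 19.3-fold higher. Enpp3, an ectoenzyme that splits extracellular nucleotides, had 360.0 CPM against 23.2 (15.5-fold). Ereg, the growth factor epiregulin, had 72.7 against 4.19 CPM (17.4-fold). Pllp, the membrane protein plasmolipin, was 19.4-fold higher, and Mab21l4, listed as 2310007B03Rik in GENCODE, was 14.4-fold higher. Pbp2 (chr6:135309127-135310405, minus strand) was 20.3-fold higher, and Gm44275, a lincRNA beside it (chr6:135312155-135319561, minus strand), was 16.9-fold higher. The last pair lies on 1 strand within a short stretch of chromosome 6.

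The list of superficial cell markers had 15 of its 24 genes measured, of which 12 were higher by 2-fold or more and 0 lower. Their median log2 ratio was 3.05. The lowest ratio was that of Lypd3, at 958 CPM in members and 667 in contrast cells. Plac8 had 1839 against 356 CPM, Upk1b, a uroplakin of the urothelial surface, 1035 against 492 CPM, and Sprr1a, a small proline-rich protein of the cornified envelope, 469.6 against 91.7 CPM. Krt13, Psca, Asprv1 and Krt12 marked these cells before the list was drawn up, so its direction is no independent evidence.

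Membrane mucins differed by gene. Of the list of mucins and glycocalyx genes 8 of 17 were measured, with 6 higher, 0 lower and a median log2 of 1.35 (8 higher with TMM, 9 with DESeq2). Muc4, a large membrane mucin of wet surfaces (chr16:32735886-32782391, plus strand), had 44.6 CPM in Krt14-high cells, 226 in Krt14-low cells and 1651 in members (12.6-fold over all contrast cells). Muc20, which can bind the MET receptor, had 146 against 10.2 CPM (14.3-fold). Upk3bl was the most abundant of the list at 5380.1 against 1932 CPM, and Lgals3, the galectin that binds mucin glycans at the ocular surface, stood at 1835 against 784 CPM. Muc1 and Muc16, membrane mucins also known from the ocular surface, were scarce and were named after their values were seen. Muc1 had 9.98 CPM in members against 1.14 in contrast cells, and Muc16 had 1 UMI in all members and 4 in contrast cells. A 3′ count for a gene depends on where its transcript is annotated to end, so a low count need not mean little RNA. Muc5ac, the gel mucin of goblet cells, had 0 UMIs in members, which allows a share of cells with a UMI of up to 0.369% (3 of 812).

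Genes of the cornified envelope, the protein shell that keratinocytes build as they end their life, were higher where they were measured. Of 27 genes 11 were measured, 10 were higher and 0 lower, with a median log2 of 2.33. Besides Asprv1, Nccrp1 and Sprr1a, the envelope scaffold proteins Ppl (1142 against 456 CPM), Scel (884 against 235) and Evpl (608 against 258) and the protease inhibitor Csta1 (228 against 43.7) were more than 2-fold higher. Cnfn (cornifelin), named after its value was seen, was 23.9-fold higher at 39.7 CPM, and Cstb 1.76-fold higher. The epidermal part of this programme was at or near 0: Flg2, Hrnr, Sprr2d, Sprr3 and Tgm3 had no UMI in members, and Flg and Lor had 15 and 15 UMIs. Those genes were named for being at or near 0.

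Junction genes differed by family. Of 14 measured tight junction genes 6 were higher and 0 lower (10 higher with TMM or DESeq2), with a median log2 of 0.82. Cldn4 had 2103 against 879.8 CPM, Cldn7 2120.4 against 883 CPM, Cldn3 373 against 52.1 CPM and Cgnl1, which ties tight junctions to the cytoskeleton, 69.0 against 5.48 CPM (12.6-fold). Cldn1 had 46.1 against 71.4 CPM. None of 11 measured desmosome genes reached 2-fold in either direction on summed UMIs, though 6 were at least 2-fold higher with TMM and 8 with DESeq2. Their ratios ran from 0.574 for Dsc3, a desmosomal cadherin of lower layers, to 1.76 for Dsc2. Among connexins Gja1 (connexin 43, chr10:56377330-56402513, plus strand) had 408 CPM in Krt14-high cells, 255 in Krt14-low cells and 37.5 in members, 8.94-fold lower than in all contrast cells. Gjb2 (connexin 26) had 161 CPM in members and 61.6 in contrast cells (2.61-fold higher). Gjb5 had a ratio of 1.07.

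Genes that fix basal cells to the basement membrane had the lowest median of the lists. Of 14 measured, 12 were at least 2-fold lower and 0 higher, with a median log2 of −2.72, and 11 were lower with either TMM or DESeq2 factors. Itgb4, the hemidesmosomal integrin chain (chr11:115974709-116008412, plus strand), had 213 CPM in Krt14-high cells, 102 in Krt14-low cells and 7.50 in members, 21.3-fold lower than in all contrast cells. Reference cells, which include Schwann cells known to use Itgb4, had 67.4 CPM. Itgb1, the partner of many integrin chains, and Lamb3, another laminin 332 chain, were named after their values were seen, at 21.5 against 205 and 1.30 against 26.5 CPM. Col17a1, the transmembrane collagen of hemidesmosomes, had 228 against 1548 CPM. Lama3, a chain of laminin 332, had 72.4 against 462 CPM. Itga6, the partner of Itgb4, had 299 against 827 CPM, and Col7a1, the anchoring fibril collagen, had 13 UMIs in all members against 1964 in contrast cells. Cd151 at 30.5 against 34.9 CPM and Plec at 214 against 318 CPM were the members that did not reach 2-fold.

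**Figure D2:**
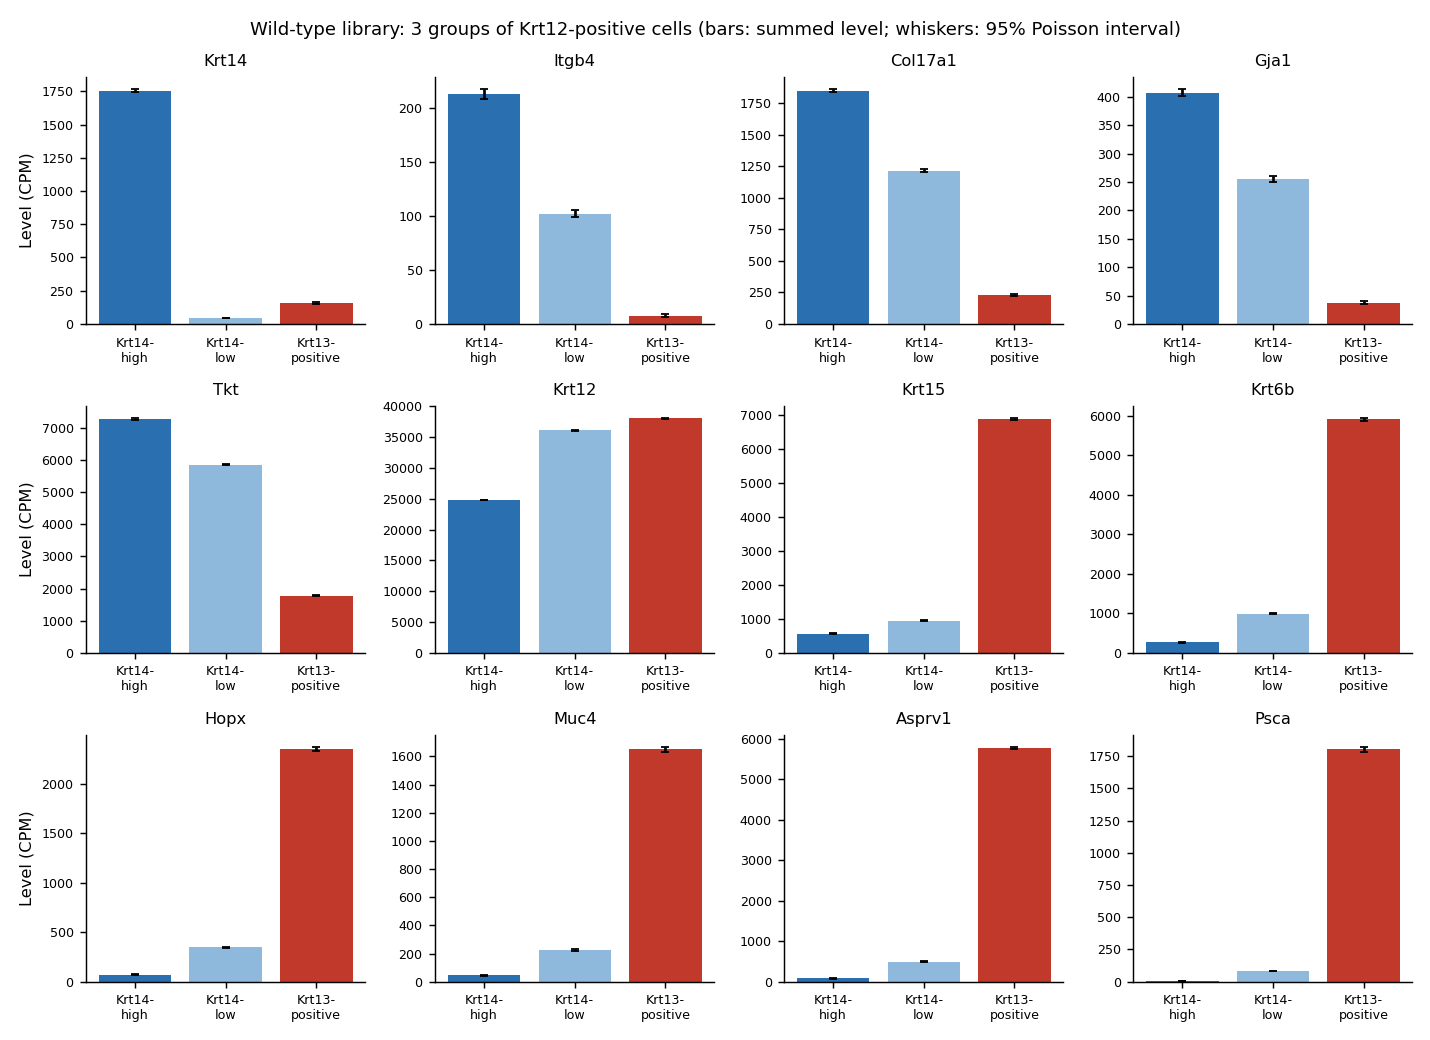
Summed levels in CPM (vertical, from 0) of 12 genes in Krt14-high and Krt14-low contrast cells and in Krt13-positive cells of the wild-type library, with 95% Poisson whiskers. Itgb4, Col17a1, Gja1 and Tkt step down across the groups, while Krt6b, Hopx, Muc4, Asprv1 and Psca have their highest bar in Krt13-positive cells. Krt12, Krt13, Krt14 and Krt15 were used to form the groups.

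Ligands and adhesion genes were among the 15 lowest ratios. Jag2, a Notch ligand (chr12:112907819-112929776, minus strand), had 2.16 CPM in members (40 UMIs) against 58.2 CPM (26.9-fold lower, ratio 0.0371 with an interval of 0.0265 to 0.0506). Wnt10a, a secreted Wnt ligand, had 2.27 against 54.8 CPM (24.2-fold lower). Nrg1, an EGF-family ligand, had 818 CPM in Krt14-high cells, 198 in Krt14-low cells and 30.9 in members. Slc6a6, the taurine transporter, had 66.3 against 929 CPM (14-fold lower). Antxr1, a receptor for matrix proteins, had 14.6 against 322 CPM, Bcam, a laminin receptor, 5.88 against 91.3 CPM, and the laminin-binding integrin chain Itga3 5.83 against 83.8 CPM. Igfbp5, an IGF-binding protein, had 9.55 against 133 CPM. Cpe, Phldb2, Adamtsl1, Rbms3, Sema5a and Cadm2 made up the rest of the 15, at 13.5-fold to 20.5-fold lower. Cadm2 was about level between Krt14-high (65.3 CPM) and Krt14-low cells (68.6 CPM), whereas the other 14 were lower in Krt14-low cells.

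Most basal and limbal genes outside the rule were lower too, while Krt5 and Krt15, which the rule uses, were higher. Of 8 measured basal genes outside the rule 7 were lower and 0 higher. Trp63, the transcription factor of basal keratinocytes, had 54.8 against 235 CPM, and Cav1, the caveolar coat protein, 3.72 against 47.1 CPM. Of 8 measured limbal genes 7 were lower and 0 higher (5 lower with TMM or DESeq2), with Gpha2, a marker of limbal stem cells, at 10.5 against 43.1 CPM and the metallothionein Mt1 at 363 against 1008 CPM. Krt5, the main basal keratin, had 5592 CPM in Krt14-high cells, 7839 in Krt14-low cells and 9180.0 in members. Krt15, often used as a limbal and basal keratin (chr11:100131758-100135928, minus strand), was at 561 CPM in Krt14-high cells, 951 in Krt14-low cells and 6876 in members. Krt15 counts toward the rule, but 799 of 812 members also reached the limit of 30 with Krt5 and Krt14 alone. It varied widely between members, with no UMI in 121 and a median of 32.8 and a maximum of 441 per 10000. Krt13, Krt15 and Krt19 (chr11:100140810-100148665, minus strand) are neighbours on chromosome 11 and were all higher in members, while Krt14 (chr11:100203162-100207548, minus strand), further along the same cluster, was lower at 159 against 941 CPM. Krt14 was still higher in members than in Krt14-low cells (44.6 CPM), which were chosen for little of it.

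Corneal differentiation genes split. Of 12 measured, 4 were higher and 4 lower (7 and 2 with TMM or DESeq2). Gsto1, an omega-class glutathione transferase, had 18167 against 3898 CPM (4.66-fold), Aqp5, the water channel, 10203 against 3862 CPM, and Lypd2, a Ly6-family protein, 8464 against 3462 CPM. The abundant soluble enzymes known as corneal crystallins were lower: Tkt, transketolase, had 7289 CPM in Krt14-high cells, 5862 in Krt14-low cells and 1779.6 in members, and Aldh3a1 had 7089.9 against 11957 CPM, short of 2-fold. Pax6 had 191 against 409 CPM (ratio 0.466, 0.450 to 0.483). Within 1 library these values describe RNA per total RNA, and a gene can lie lower in share without fewer molecules in the cell.

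The wound-associated keratins were high. Krt6a had 5942 CPM in members against 1158 in contrast cells, Krt6b 5909 against 607 (9.74-fold) and Krt16 1554 against 449. Krt6a and Krt6b are near-identical, so reads may be split between them in a way that is uncertain. The fourth keratin of the list, Krt17, lay under the 20 CPM limit (13.9 against 8.54 CPM).

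Of 22 measured transcription factors of epithelial differentiation 6 were higher and 4 lower, beside 7.01 and 18.8% of all measured genes. Their median log2 ratio was 0.23. With TMM or DESeq2 8 were higher and 0 lower, so the lower calls do not hold under each scaling. Hopx, a homeodomain protein without DNA binding of its own (chr5:77086988-77115121, minus strand), had 72.3 CPM in Krt14-high cells, 348 in Krt14-low cells and 2354 in members (11.6-fold). Elf3, an epithelial ETS factor, had 1348 against 395 CPM, and Id1, an inhibitor of E-box factors, 501 against 188 CPM. The most abundant Krüppel-like factors differed little, with Klf4 at 1137 against 968 CPM and Klf6 at 870.5 against 732 CPM. Id3 was the lowest at 115 against 305 CPM.

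Among EGF-family ligands and receptors 5 of 9 measured were higher and 0 lower, and all 5 are ligands. Areg had 238 against 29.0 CPM (8.20-fold), Btc 56.8 against 14.5, Tgfa 39.2 against 18.7 and Hbegf 1515 against 745, beside Ereg above. The receptor Egfr had 227 against 420.3 CPM, and Erbb2 and Erbb3 had ratios of 1.43 and 1.42. Nrg1, above, is outside that list. In the Notch list 4 of 10 were lower and 0 higher (3 lower with TMM or DESeq2), beside 18.8 and 7.01% of all measured genes. The lower genes include the ligands Jag2, Jag1 (36.6 against 74.2 CPM) and Dll1 (3.02 against 49.7 CPM). Notch1 and Notch3 had ratios of 0.683 and 0.718, and the target Hes1 0.653, near the −0.66 median log2 of the list.

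Defence genes formed a further group. Of 11 measured alarmins and S100 genes 6 were higher and 0 lower (9 higher with TMM or DESeq2), with Defb1, a beta-defensin, at 602 against 101 CPM and S100a6 at 13754 against 5651 CPM. Of 13 measured interferon-response genes 7 were higher and 1 lower. Isg15 had 228 against 45.4 CPM and Oasl2 87.4 against 19.4 CPM, but the interferon-activated factor Irf1 had a ratio of 0.889, and Ifitm3, beside Ifitm1 in name, was the lower gene at 10.0 against 64.7 CPM. Of 9 measured antigen presentation genes 4 were higher and 0 lower, (7 higher with TMM or DESeq2, and 1 higher when set against Krt14-low cells), with the immunoproteasome subunit Psmb8 at 163 against 31.4 CPM, while B2m had 115 against 117 CPM. Of 11 measured genes of the Ly6 and uPAR-like family 6 were higher and 1 lower (8 higher with TMM, 9 with DESeq2). Ly6g6c had 1107 against 131 CPM, Slurp1, a secreted member, 4354 against 2678 CPM, and Lypd6, the lower gene, 1.73 against 25.4 CPM.

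Cholesterol and lipid synthesis was the metabolic list with most higher genes. Of 22 measured, 9 were higher and 0 lower on summed UMIs (16 and 17 higher with TMM and DESeq2, and 4 when set against Krt14-low cells). Among them were Fdps at 1061 against 332 CPM and Insig1, a sterol-sensing regulator of sterol synthesis, at 179 against 46.9 CPM. Glycolysis had a median log2 of −0.47 over 10 genes, 0.00 with TMM and 0.07 with DESeq2, and Slc2a1, the glucose transporter, was its 1 lower gene at 39.4 against 127 CPM. Cytosolic ribosomal protein genes had a median log2 of −0.72 over 24 genes (3 lower, and 0 lower with TMM or DESeq2). Oxidative phosphorylation had a median of 0.07 over 22 genes, with Ndufa4, named as the 1 higher gene, at 1786 against 685 CPM.

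**Figure D3:**
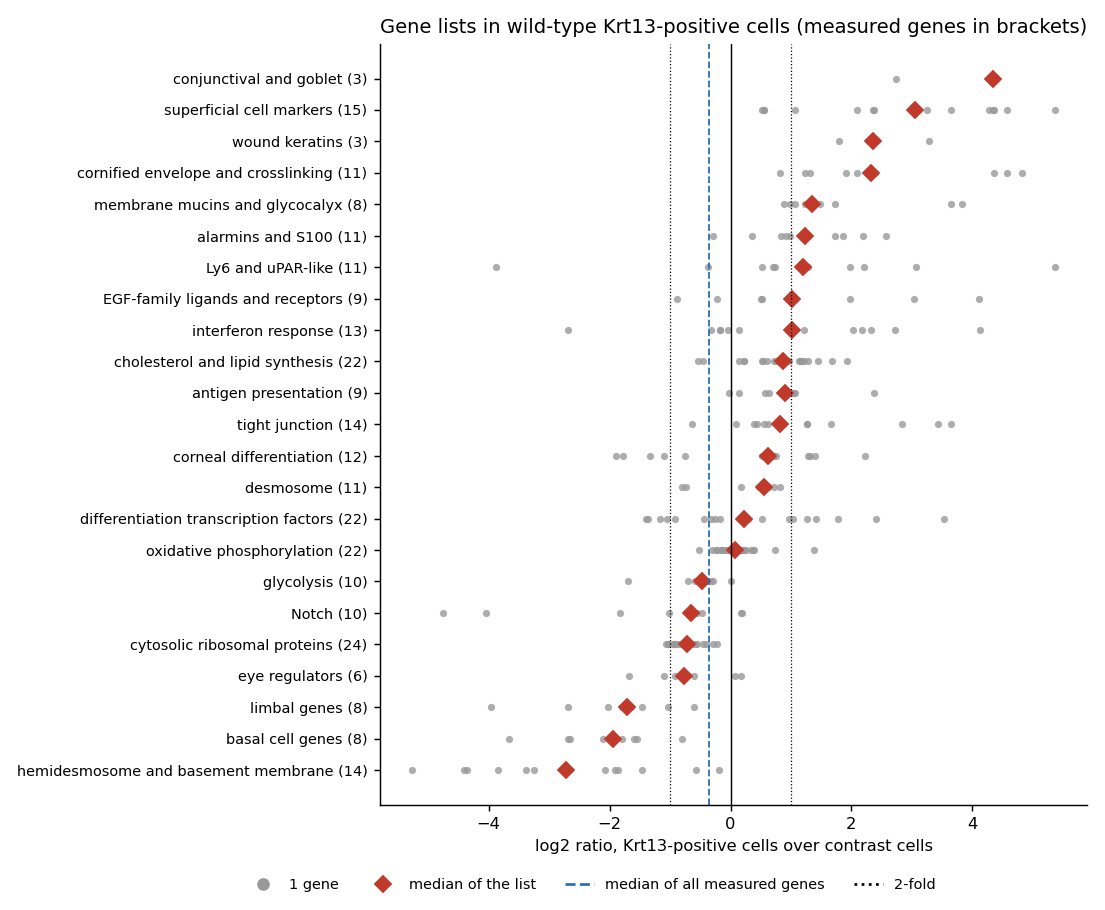
The log2 ratio of Krt13-positive over contrast cells (horizontal) for each measured gene of 23 lists, with the number measured in brackets and the list median as a red diamond. Medians run from 4.34 for 3 conjunctival genes to −2.72 for hemidesmosome genes, beside −0.36 for all measured genes.

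Members varied among themselves along Krt13. From 5 to under 10 per 10000 (220 cells) to 50 or more (127 cells), Psca went from 399.8 through 677 and 2229 to 4684 CPM, and Asprv1 from 2416 through 3853 and 7067 to 10720.2 CPM. Muc4 went from 844 to 2854 CPM and Ifit1bl1 from 87.9 to 738 CPM. Krt16 was about level from 1520.2 to 1662 CPM, and Sprr1a likewise from 456 to 423 CPM. Itgb4 went from 16 to 2.10 CPM and Tkt from 2733 to 798 CPM. Krt12, which chose the cells too, had 40748 CPM in the lowest of these bins and 30351 in the highest. Median depth was 15970.5, 19496, 20588 and 20605 UMIs in the 4 bins. Of the 442 higher genes 391, 413 and 373 stood higher at the 3 successive steps between these bins, and of the 1187 lower genes 347, 64 and 155 did. The order of bins was set by Krt13 and the genes were called on the same cells, so these counts describe the cells and are no test. The steps were not counted over all measured genes, so no such share stands beside them.

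**Figure D4:**
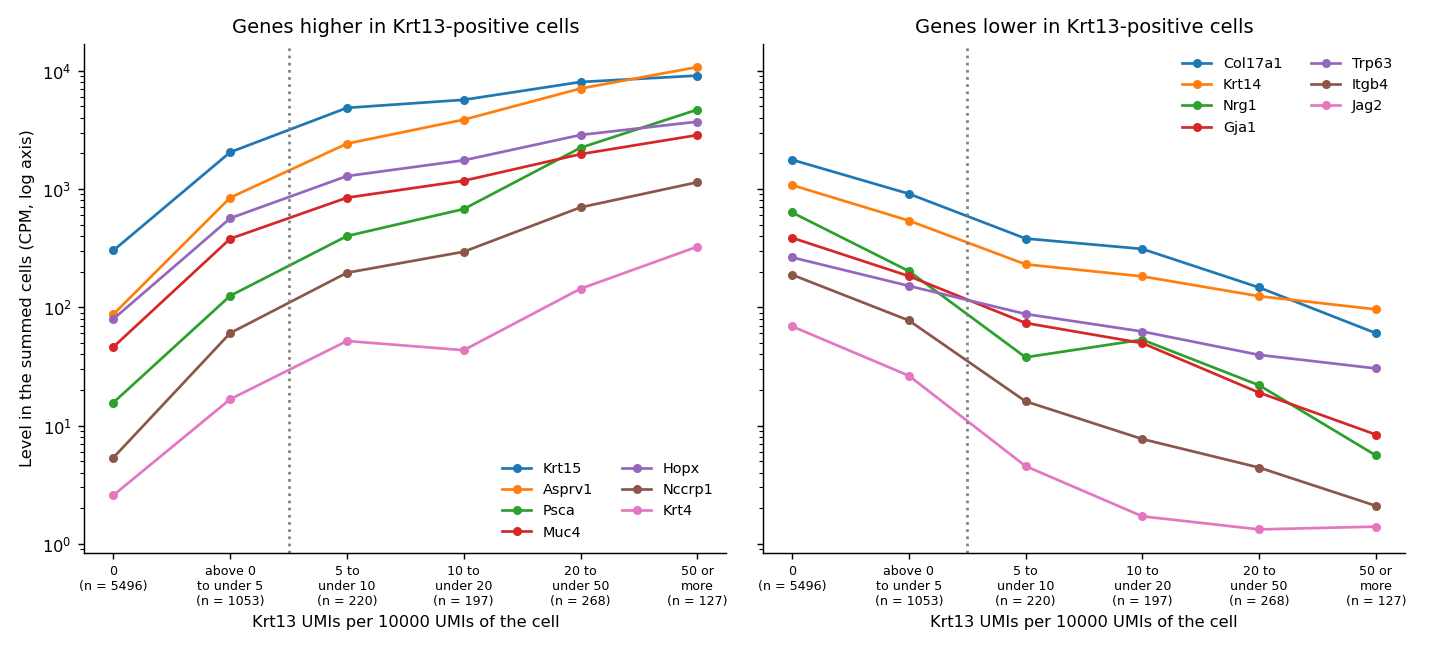
Summed levels (CPM, log axis) of 7 higher and 7 lower genes in noncycling Krt12-positive wild-type cells grouped by Krt13 per 10000 UMIs, with the number of cells under each group. Members lie right of the dotted line, where Psca goes from 400 to 4684 CPM and Itgb4 from 16 to 2.10 CPM.

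Psca marked the far end of the group. The 302 members with at least 5 Psca per 10000 had Asprv1 at 10683 CPM, Ifit1bl1 at 643, Nccrp1 at 1101 and Gja1 at 9.27 CPM. The other 510 had 2051, 24.3, 135 and 58.8 CPM. Median depth was 21506 and 17510.5 UMIs. Krt4 was about equal in both, at 127 and 124 CPM, and Sprr1a was lower where Psca was high, at 381 against 537 CPM. Cells like this also lay outside the rule. Of the contrast cells 72 had Psca at 5 or more per 10000, with Asprv1 at 10030.2 CPM, Muc4 at 2638, Itgb4 at 13.3 and Krt13 at 159.7 CPM. Their median depth was 4873 UMIs. Another 61 kept wild-type cells had Krt13 at the limit and too little Krt5, Krt14 and Krt15, with Psca at 20878 CPM, Asprv1 at 23698, Gsto1 at 48587 and Krt12 at 8766 CPM, at a median of 3320.0 UMIs. Psca and Asprv1 thus reached higher summed levels in these cells, which the limit on basal keratins leaves out, than in the members.

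Conjunctival keratins were high in few members. Krt4, Krt7 and Krt19 together reached 5 per 10000 in 61 of 812 members and 23 of 6549 contrast cells. Those 61 had Krt4 at 1116 CPM, Krt19 at 546, Krt15 at 19796 and Ifitm1 at 3939 CPM, and the other 751 had 33.6, 42.1, 5677 and 1188 CPM. Krt12 was 23234 CPM in the 61 and 39403 in the 751, and Slurp1 2474 and 4528 CPM. In the 48 wild-type cells with Krt13 and basal keratins at the limit but too little Krt12, Krt4 was at 2870.1 CPM, Krt15 at 33291 and Slurp1 at 102 CPM. The 61 lie between those cells and the other members in Krt15 and Slurp1. They also do so in Krt4 and Krt12, but these keratins were used to form the groups. Other genes were not in between. Psca was at 2954 CPM in the 61, 1696 in the 751 and 550 in the 48, and Asprv1 and Muc4 were also highest in the 61. Part of the conjunctiva stayed with the tissue per the labels, and its part in these values was not tested. Without cells at that conjunctival limit, 435 genes were higher and 1151 lower.

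Most of these genes also differed from Krt14-low cells by 2-fold. Of the 442 higher genes 316 were at least 2-fold higher than in Krt14-low cells, and of the 1187 lower genes 1024 were at least 2-fold lower. In that comparison 5.26% of 6279 measured genes were higher and 17.1% lower. Between Krt14-low and Krt14-high cells 2.22% were higher and 2.38% lower. Of the 442 higher genes 180 were also at least 2-fold higher in Krt14-low than in Krt14-high cells, and of the 1187 lower genes 89 were also lower there. The groups share cells, so these shares are side-by-side values only.

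The library labelled Pax6 +/- gave few such cells. Pax6 there stood at 565 CPM in the 59 Krt13-positive cells and 853 CPM in their 350 contrast cells. The wild-type groups had 191 and 409 CPM. All these cells were chosen for Krt12. The basal keratin and Krt12 limits were met by 5.03% of kept cells there and 81.0% in the wild-type library. Pax6 RNA in cells chosen in this way cannot test the label. A 3′ count can miss an altered part of a gene, and the allele is not given. Krt13-positive cells with basal keratins were not fewer in that library (1544 against 886), but 1479 of the 1544 had Krt12 under the limit, against 48 of the 886. Among its noncycling Krt12-positive cells 14.4% (11.2 to 18.2%) were Krt13-positive. By the same contrast 6.84% of 6592 measured genes were higher and 11.8% lower. Of the 442 genes higher in wild-type members 306 were also at least 2-fold higher there and 2 at least 2-fold lower, and of the 1187 lower genes 500 were also lower and 2 higher.

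Set directly beside each other, 13.1% of 5992 measured genes were at least 2-fold higher in the 59 cells of the library labelled Pax6 +/- than in the 812 wild-type members, and 5.69% were lower. Krt13 was close, at 3060.4 against 2874 CPM. Psca was at 11.3 CPM (16 UMIs, none in 52 of 59 cells) against 1803 CPM, a ratio of 0.00625 (0.00357 to 0.0101). Asprv1 was at 379 against 5769 CPM, Slurp1 at 375 against 4354 CPM and Ly6g6c at 125 against 1107 CPM. Other genes of the surface programme were less far apart, with Muc4 at 463 against 1651 CPM and Hopx at 1055 against 2354 CPM. Krt4 was at 1132 against 125 CPM, a ratio of 9.02 (8.46 to 9.62), and Krt14 at 1236 against 159 CPM. Areg, at 855 against 238 CPM, Ifit1bl1, at 601 against 291 CPM, and Ifitm1, at 2488 against 1422 CPM, were also higher there. Lower and higher genes thus stood side by side among those that mark wild-type members. Within the library labelled Pax6 +/- Asprv1 was 73.2-fold (50.1 to 111) higher in Krt13-positive than in contrast cells. Nccrp1 was 164-fold (69.3 to 511) higher. The contrast levels behind these ratios rest on 28 and 5 UMIs. Genotype, library and the mice used cannot be told apart here.

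**Figure D5:**
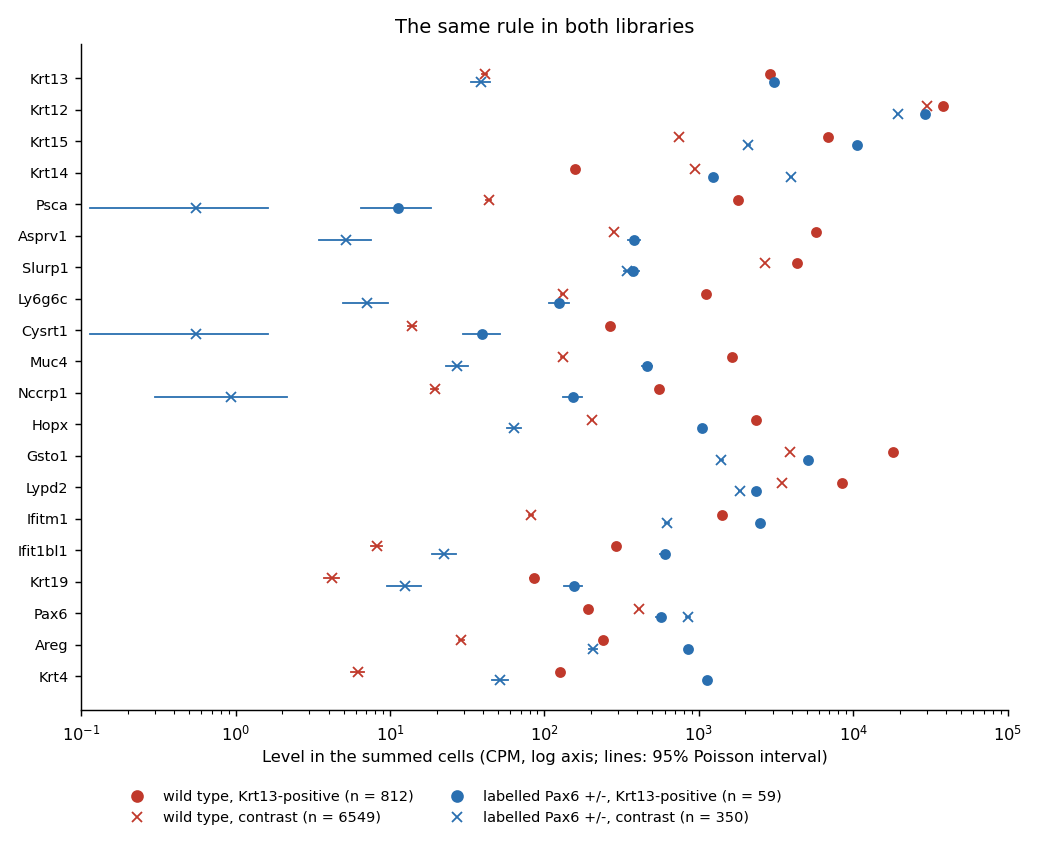
Summed levels in CPM (horizontal, log axis) of 20 genes in Krt13-positive cells (circles) and contrast cells (crosses) of the wild-type library (red) and the library labelled Pax6 +/- (blue), with lines for 95% Poisson intervals. Krt13 circles nearly coincide, while Psca lies at 1803 and 11.3 CPM and Krt4 at 125 and 1132 CPM.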

How the data were processed

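Single-cell suspensions of cornea and limbus from wt and Pax6 +/- mice were captured on the 10x platform, 1 library per genotype. The deposited files hold raw UMI counts per gene and barcode, made by the authors with Cell Ranger 8.0.0 per the file headers and on GRCm38 per the submitters' processing notes. Filters applied before deposit beyond cell calling are not given in the sources used here. The deposited barcodes held 1.2454e+08 UMIs (wild type) and 1.31568e+08 UMIs (labelled Pax6 +/-), of which 1.23671e+08 and 1.30683e+08 were in kept cells, and no doublet caller was run.

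Counts were summed over the cells of a group and divided by their UMIs without mitochondrially encoded genes (CPM). Members held 18529647 such UMIs and contrast cells 72868876. Ratios carry exact conditional binomial intervals, levels Poisson intervals and shares Clopper-Pearson intervals, all at 95%. They cover counting error only, since cells of 1 library are not replicates, and no p-value was computed. Genes were measured at 20 CPM in either group and called at 2-fold. Of genes at 50 CPM or more, the 15 highest and the 15 lowest ratios are named, and of each list the highest and lowest ratio and up to 6 members of high CPM. Genes named outside this rule, Pax6 in the genotype comparison included, were chosen after their values were seen. The members and the gene lists were chosen with earlier results of these data known. Contrast cells were split at their median Krt14. Reference cells had basal keratins under 30 and vessel, Schwann or immune markers at 20 or more per 10000 UMIs. Positions were taken from GENCODE M21 (GRCm38) by Ensembl ID, with 39 of 39 matched. Some genes are not reported here. The summing and calling steps were tested on simulated counts.

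Python 3.11.15 with numpy 2.4.6, pandas 2.3.3 and scipy 1.17.1 was used. R 4.3.3 with edgeR 4.0.16 and DESeq2 1.42.0 gave scaling factors only. Alternatives were other Krt13, Krt12 and mitochondrial limits, other contrasts, filters, totals and scalings, depth windows, means over cells and thinned cells.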

Additional observations from a re-analysis of the deposited data

Results flagged for a closer look

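The ratio of Krt13-positive to contrast cells lay on opposite sides of 1 in the wild-type library and the library labelled Pax6 +/- for 9 genes, with a change of at least 2-fold in the wild-type library and of at least 1.5-fold the other way in the other. The counting interval of both ratios excluded 1, and the gene had at least 50 UMIs in the second library, so genes with few UMIs there are left out. This difference was not tested, and the limits were set after the data were seen. The list rests on 59 cells in the second library.

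Higher in wild-type members and lower in the other library were 5 genes. Fgd3, a guanine nucleotide exchange factor of the FGD family, had ratios of 12.4 and 0.623, from 27.1 against 2.20 CPM in the wild-type library and 26.8 against 42.9 CPM in the other. Its level was thus near equal in both member groups and lower in wild-type contrast cells. Ly6a, the surface protein Sca-1, had 4.60 and 0.646, and its level in both groups of the library labelled Pax6 +/- (1088 and 1684 CPM) was far above the wild-type levels (47.9 and 10.4 CPM). Arc, an immediate early gene, had 2.75 and 0.666, and Tgfa, the EGF receptor ligand, 2.10 and 0.657. Ndrg1, a gene raised by low oxygen in many cells, had 2.37 and 0.278, from 93.7 against 39.5 CPM and 27.5 against 98.9 CPM.

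Lower in wild-type members and higher in the other library were 4 genes. Tmprss11d, an airway-type surface serine protease, had 0.443 and 1.69, from 434 against 980.4 CPM and 75.3 against 44.6 CPM. Cyp3a13, a cytochrome P450, had 0.386 and 2.03, and Hpgds, the haematopoietic prostaglandin D synthase, 0.447 and 1.52. Adcy2, an adenylyl cyclase, had 0.384 and 1.51, from 38 UMIs in the 59 cells.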

How the results depend on the processing

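Raising the Krt13 limit to 20 per 10000 left 395 of 812 members. The count of genes at least 2-fold higher, 442 as reported, was 2169 with no filter, 899 with edgeR's TMM factors and 1003 with DESeq2's size factors. The count at least 2-fold lower, 1187 as reported, was 2476 with a filter of 5 CPM, 4752 with no filter, 491 with TMM and 436 with DESeq2. Both scalings raise every ratio by 1 factor, and a lower filter admits more genes. All other alternatives gave 330 to 627 higher and 1071 to 1666 lower genes. The 30 named genes were at least 2-fold in the reported direction under all 19 alternatives, 570 values in all, of which 261 moved beyond the counting interval. Psca ranged from 4.43 to 6.85 in log2. Of 589 list medians 567 stayed within their spread, 20 moved and 2 reversed, the glycolysis median at 0.0038 with TMM and 0.075 with DESeq2. Medians near 0 also changed sign without a call: the autophagy list went from −0.02 to 0.50 with TMM. No paired analysis was possible because each genotype has 1 library and the labels carry no replicate numbers, and no library could be left out for the same reason. Limits to cells of 3000 UMIs or more and a total without Gm42418 (435 higher, 1259 lower) were chosen after seeing the data. Depth limits single genes: at 3 UMIs the members' floor lies far under 20 CPM, but in the 59 cells of the library labelled Pax6 +/- few UMIs stand behind low genes.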

Other observations

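Of 10 measured cytoskeleton and microridge genes 3 were at least 2-fold higher in wild-type Krt13-positive cells and 1 lower (5 and 0 with TMM or DESeq2). Eps8l2, an actin-capping adaptor, had 289.5 against 111 CPM, Ezr (ezrin), which links membrane to actin, 807 against 690.4 CPM, and Tpm2, a tropomyosin, 172 against 225 CPM. Of 14 measured cell cycle inhibitors and p53 targets 2 were higher and 3 lower (4 and 3 with TMM, 5 and 2 with DESeq2), beside 7.01 and 18.8% of all measured genes. Cdkn1a (p21) had 1501 against 681 CPM, Cdkn2b 74.1 against 25.4 CPM, and Btg2 1040.4 against 1036 CPM, while Sfn (14-3-3 sigma) stood at 4795 against 2849 CPM.

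Transport and lipid genes split as well. Of 9 measured transport genes 3 were higher and 4 lower (3 lower with TMM or DESeq2), beside 7.01 and 18.8% of all measured genes. Slc6a14, an amino acid transporter, had 395 against 63.6 CPM (6.21-fold), and the water and glycerol channel Aqp3 had 2293 against 1662 CPM. The mechanosensitive channels Piezo1 and Piezo2 had ratios of 0.658 and 0.246. Of 9 measured barrier lipid genes 3 were higher and 0 lower (5 higher with TMM or DESeq2), with Cers3, a ceramide synthase of barrier lipids, at 75.1 against 24.9 CPM, Elovl6, a fatty acid elongase, at 224 against 174 CPM and Plin2, a lipid droplet protein, at 16.2 against 30.2 CPM. Of 19 measured antioxidant genes 2 were higher and 5 lower (3 and 3 with TMM or DESeq2), beside 7.01 and 18.8% of all measured genes. Gstm1 and Gstm2, named after their values were seen, stood at 0.167 and 0.139 of the contrast level. Glycogen genes had a median log2 of −0.85 over 6, with Ppp1r3c, a glycogen-targeting phosphatase subunit, at 27.2 against 67.5 CPM and Pgm2 at 23.4 against 11.5 CPM.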
